A study of Mus musculus with 17 samples.

Results

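Hemoglobin and red cell genes were followed in mouse lung as 8 members of a table of 31245 genes, picked by gene symbol: the alpha globins Hba-a1 and Hba-a2, the beta globins Hbb-bs and Hbb-bt, the heme enzyme Alas2, the membrane genes Slc4a1 and Epb42, and Bpgm. All 8 were found, and all 8 had the 20 counts in total that were required for testing. RNA of whole snap-frozen lung was sequenced from 17 mice, grouped by genotype and by drinking water. WT mice were Sv/129 mice that carry the mouse receptor PPARα. KO mice (PPARa KO in the labels) lack it, and KI mice (hPPARa KI) carry the human form. KO and KI mice came from breeding between PPARα null mice and mice with a single human PPARα copy. The treated mice drank water with 6.2 μg/mL perfluorooctanoic acid (PFOA, called Hi-PFOA in the labels) from 6 weeks of age for 14 weeks. The vehicle was water with 0.5% sucrose, and all mice ate a custom American-style diet. There were 2 WT vehicle mice and 3 in each of the other 5 groups. A further WT vehicle sample was not analysed here. All 6 KO mice were female, whereas 3 of the 5 WT and 2 of the 6 KI mice were male. Ppara RNA, the targeted gene's, was 4.38 to 7.19 CPM in WT, 8.82 to 11.7 CPM in KO and 9.08 to 20.4 CPM in KI libraries, so it was not lower in the libraries labelled KO. For this reason both names are labels only, also in every direction drawn from them. Libraries are named below by the animal numbers of the labels.

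Hemoglobin is built from alpha and beta globin chains, each of which holds a heme group. It is made in red cell precursors of the bone marrow, and the reticulocytes that leave the marrow still carry globin RNA for a short time. Whole lung holds much blood, and red cell transcripts in lung RNA are generally taken to come from it. Perfusion of the lungs is not mentioned in the sources used here. In bulk tissue, fewer cells of a type and less RNA per cell cannot be told apart.

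In the reference sequence, the members of each globin pair are close copies of each other, which bears on how their reads were divided. The coding sequences of Hba-a1 and Hba-a2 differ at 1 of 429 bases (C381T, with Hba-a1 given first), and those of Hbb-bs and Hbb-bt differ at 1 of 444 (C417T, with Hbb-bs given first). Positions were counted from 1 at the first base of the start codon. These are reference sequences, and those of the mice studied were not examined. Stretches of 41 coding bases from the GENCODE transcripts are given around each difference, with the base that differs in capitals, because a read inside the identical remainder cannot be assigned by its coding bases alone.
Hba-a1: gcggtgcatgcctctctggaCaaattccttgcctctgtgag
Hba-a2: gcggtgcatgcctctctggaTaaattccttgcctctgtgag
Hbb-bs: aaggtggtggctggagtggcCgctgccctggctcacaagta
Hbb-bt: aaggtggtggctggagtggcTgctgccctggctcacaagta

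Promoters were found in RefSeq (GRCm38.p6) for 7 of the 8 members; Slc4a1 was not among them. The 250 bases before the RefSeq start of 4 members are shown, as an alpha globin, a beta globin, the heme enzyme and the member with the steadiest level. The windows lie at chr11:32296242-32296491 (plus strand) for Hba-a2, chr7:103827929-103828178 (minus strand) for Hbb-bs, chrX:150547167-150547416 (plus strand) for Alas2 and chr6:34476106-34476355 (plus strand) for Bpgm. Each holds the start of its GENCODE gene model. Capitals mark matches, on either strand, to the letters GATAA, which Gata1 and its relatives bind, to CACCC, which Klf1 and its relatives bind, to CCAAT, which is bound by NF-Y, and to TATAA, the core promoter box.
Hba-a2: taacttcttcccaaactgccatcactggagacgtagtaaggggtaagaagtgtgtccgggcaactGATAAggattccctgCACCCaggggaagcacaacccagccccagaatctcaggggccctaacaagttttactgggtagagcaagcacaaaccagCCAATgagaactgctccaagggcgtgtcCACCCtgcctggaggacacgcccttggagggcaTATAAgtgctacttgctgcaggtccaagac
Hbb-bs: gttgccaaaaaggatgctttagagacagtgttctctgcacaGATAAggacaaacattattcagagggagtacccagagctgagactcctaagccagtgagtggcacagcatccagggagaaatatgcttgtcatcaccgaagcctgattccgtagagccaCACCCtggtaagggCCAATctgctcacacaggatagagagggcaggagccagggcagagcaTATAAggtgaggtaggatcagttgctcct
Alas2: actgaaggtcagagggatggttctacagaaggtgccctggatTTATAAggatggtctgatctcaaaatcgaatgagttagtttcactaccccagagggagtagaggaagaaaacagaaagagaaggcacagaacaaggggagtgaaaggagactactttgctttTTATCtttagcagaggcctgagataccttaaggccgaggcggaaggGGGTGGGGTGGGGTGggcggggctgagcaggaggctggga
Bpgm: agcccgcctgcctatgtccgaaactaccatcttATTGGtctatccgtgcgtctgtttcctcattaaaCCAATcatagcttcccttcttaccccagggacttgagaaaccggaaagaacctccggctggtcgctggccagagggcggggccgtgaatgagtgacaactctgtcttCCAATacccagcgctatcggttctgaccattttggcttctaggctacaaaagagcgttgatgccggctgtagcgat

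GATAA was found in 6 of the 7 promoters, the exception being Bpgm, whereas 22.6% of all 32851 RefSeq promoters of this length hold it. CACCC was found in the 4 globin genes and in Alas2 (52% of all promoters). CCAAT was found in the 4 globin genes and in Bpgm (33.8%), and TATAA in the globin genes, Alas2 and Epb42 (22.8%). In the globin promoters TATAA on the gene's own strand began 27 to 30 bases before the start. The 2 TATAA matches of Alas2 overlap, as the same letters read on both strands. A match is a description of the letters only. Motif positions are drawn in the map of the 7 promoters.

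**Figure D1:**
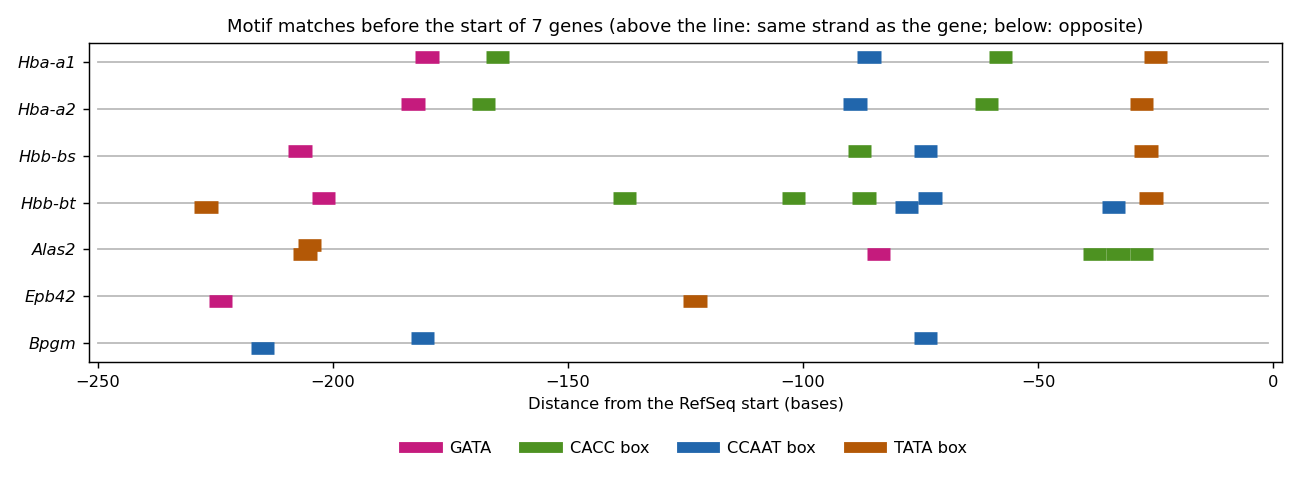
Positions of the 4 motifs (colours) in the 250 bases before the RefSeq start of 7 members, in bases from the start, with matches on the gene's strand above the line and on the other strand below it. The 4 globin genes share a TATA box near the start and a GATA match in the far part of the window, while Bpgm has CCAAT matches only.

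The library totals ranged from 4116116 to 9237385 estimated counts (median 7524817), so that 3 counts equal 0.325 to 0.729 CPM (counts relative to library size) before scaling. CPM values below are scaled by TMM factors. The summed markers of lung epithelium (9833 to 25916 CPM) and of endothelium (1316 to 3364 CPM) were present in every library, and none of these markers was at 0 in all libraries. Protein-coding genes took 65.3% of the counts in WT vehicle library 122 and 61.3% in KO vehicle library 137, against 74.4 to 80.4% in the other libraries. Cardiac muscle markers, all 8 of which were measured, summed to 283 to 7418 CPM. Each library is labelled as a mouse of its own, and p-values measure the spread between these mice.

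Together the 8 members took 0.0422 to 0.262% of the counts of a library. Per kilobase of the longest protein-coding transcript, the mean level was 891 CPM for Hba-a2, 628 for Hbb-bs, 134 for Hba-a1 and 123 for Hbb-bt. It was 20.4 CPM per kilobase for Alas2, 12.3 for Bpgm, 0.355 for Slc4a1 and 0.119 for Epb42. The globin transcripts were thus the main red cell signal, and the 2 membrane genes were near the limit of detection. Slc4a1 had 189 counts over all libraries, and Epb42 had 53, with 0 counts in 6 libraries.

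**Figure D2:**
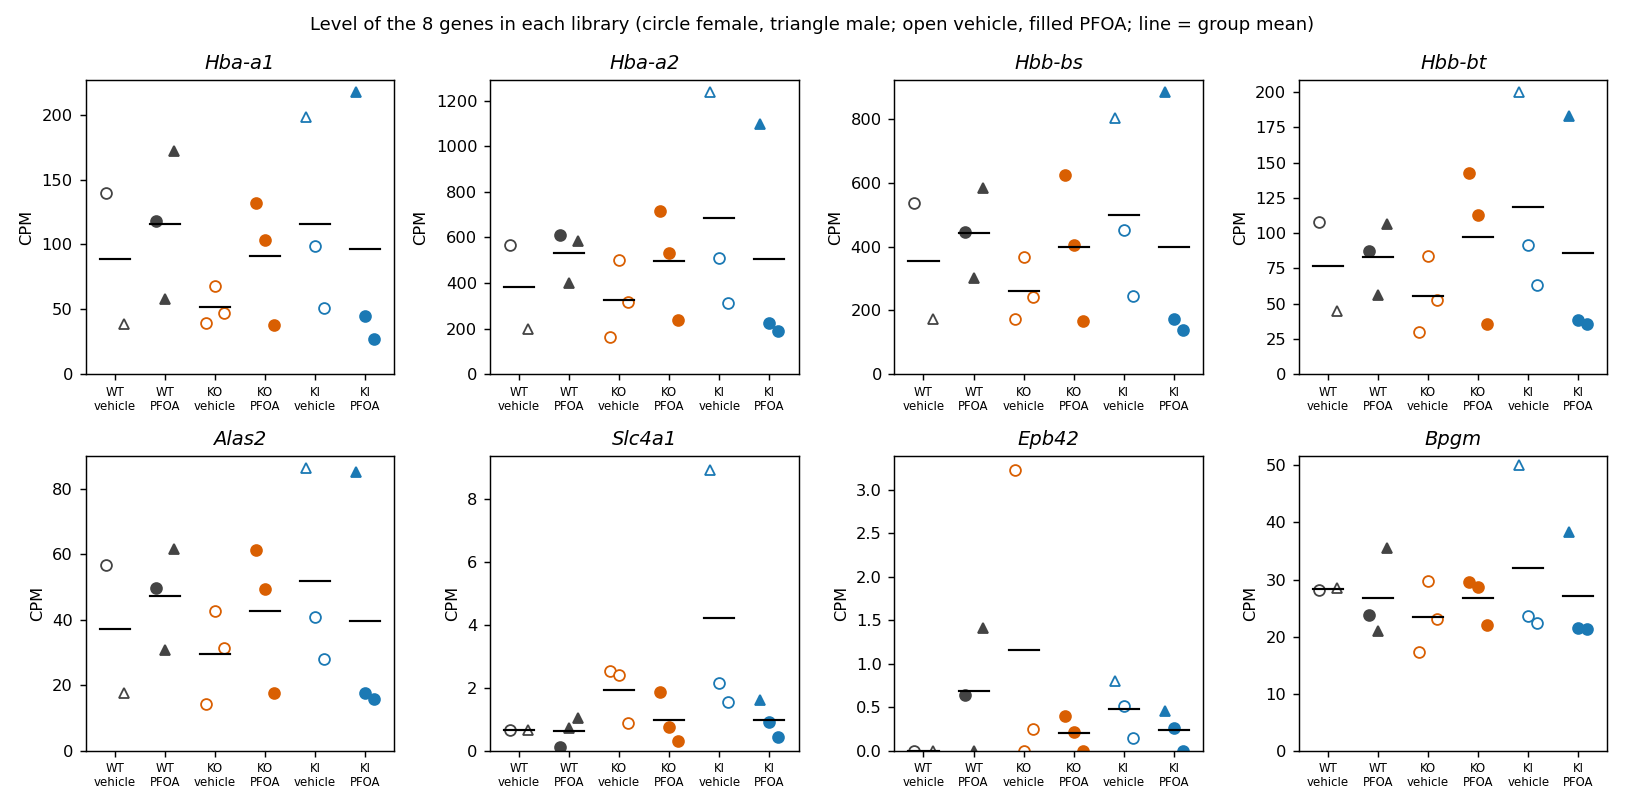
CPM of each member (vertical axes from 0) in each of 17 libraries, by genotype and drinking water, with circles for females, triangles for males, open symbols for vehicle, filled symbols for PFOA and a line at the group mean. Vehicle and PFOA libraries overlap for every member in every genotype, and KI libraries 102 and 57 have the highest globin levels.

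Hbb-bs encodes an adult beta globin chain (ENSMUSG00000052305, mm10 chromosome 7, 103826534 to 103828096, minus strand). In WT mice, it had 537 CPM in library 107 and 173 CPM in library 122 on vehicle. On PFOA, the WT libraries 50, 56 and 65 had 445, 301 and 583 CPM. The 3 exposed libraries fell around the vehicle pair, and library 65 alone was above both vehicle libraries.

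KO vehicle libraries 137, 145 and 149 had 172, 368 and 241 CPM of Hbb-bs, and KO PFOA libraries 52, 154 and 155 had 625, 404 and 165 CPM. The KO PFOA group held both the highest and the lowest of these 6 values. KI vehicle libraries 102, 116 and 135 had 804, 450 and 244 CPM, and KI PFOA libraries 57, 80 and 139 had 885, 172 and 139 CPM. Each KI group had a single high library, which was the male of its group. The group means of Hbb-bs were 355 ± 257 CPM (SD, n = 2) in WT vehicle, 443 ± 141 (SD, n = 3) in WT PFOA, 260 ± 99.3 (SD, n = 3) in KO vehicle, 398 ± 230 (SD, n = 3) in KO PFOA, 499 ± 283 (SD, n = 3) in KI vehicle and 398 ± 422 (SD, n = 3) in KI PFOA. The SDs were large against the differences between these means.

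Hbb-bt, the close copy of Hbb-bs (ENSMUSG00000073940, chromosome 7, 103812524 to 103813996, minus strand), had 108 and 45.1 CPM in WT vehicle libraries 107 and 122, and 87.1, 56.4 and 106 CPM in WT PFOA libraries 50, 56 and 65. It had 29.9, 84.0 and 52.5 CPM in KO vehicle libraries 137, 145 and 149, and 142, 113 and 35.7 CPM in KO PFOA libraries 52, 154 and 155. In KI, it had 200.3, 91.6 and 63.1 CPM on vehicle (102, 116, 135) and 183, 38.3 and 35.6 CPM on PFOA (57, 80, 139). The high and low libraries were the same as for Hbb-bs at both ends of the KI groups, and the exposure groups overlapped in each genotype.

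Hba-a2 encodes the adult alpha chain (ENSMUSG00000069917, chromosome 11, 32296489 to 32297298, plus strand) and had the highest level of the 8 members. WT vehicle libraries 107 and 122 had 565 and 198 CPM, and WT PFOA libraries 50, 56 and 65 had 609, 399 and 585 CPM. KO vehicle libraries 137, 145 and 149 had 163, 499 and 316 CPM, and KO PFOA libraries 52, 154 and 155 had 717, 533 and 236 CPM. KI vehicle libraries 102, 116 and 135 had 1238, 509 and 313 CPM, and KI PFOA libraries 57, 80 and 139 had 1099, 227 and 188 CPM. The values again overlapped between vehicle and PFOA in each genotype. Hba-a1 (ENSMUSG00000069919, chromosome 11, 32283511 to 32284465, plus strand) encodes the same kind of chain and ranged from 27.0 CPM in KI PFOA library 139 to 217 CPM in KI PFOA library 57.

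Summed over the 4 globin genes, WT libraries had 1349.9 and 455 CPM on vehicle (107, 122) and 1259, 814 and 1446 CPM on PFOA (50, 56, 65). KO libraries had 405, 1019 and 657 CPM on vehicle (137, 145, 149) and 1616, 1154 and 475 CPM on PFOA (52, 154, 155). KI libraries had 2440.3, 1149.8 and 672 CPM on vehicle (102, 116, 135) and 2384.5, 481 and 389 CPM on PFOA (57, 80, 139). The highest sum was thus 6.27-fold above the lowest, and both extremes came from KI mice.

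The make-up of the globin RNA varied far less than its amount. The ratio of alpha to beta globin CPM was 1.21 ± 0.116 (SD, n = 17), with a range of 1.002 to 1.43. Hba-a2 took 84.3 ± 2.90% (SD, n = 17) of the alpha globin CPM, with a range of 77.3 to 88.0%. Hbb-bt took 18.1 ± 2.04% (SD, n = 17) of the beta globin CPM, with a range of 14.8 to 21.9%. Since the authors split reads between gene copies with an expectation-maximization model, these shares are estimates, and counting error does not cover their uncertainty.

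**Figure D3:**
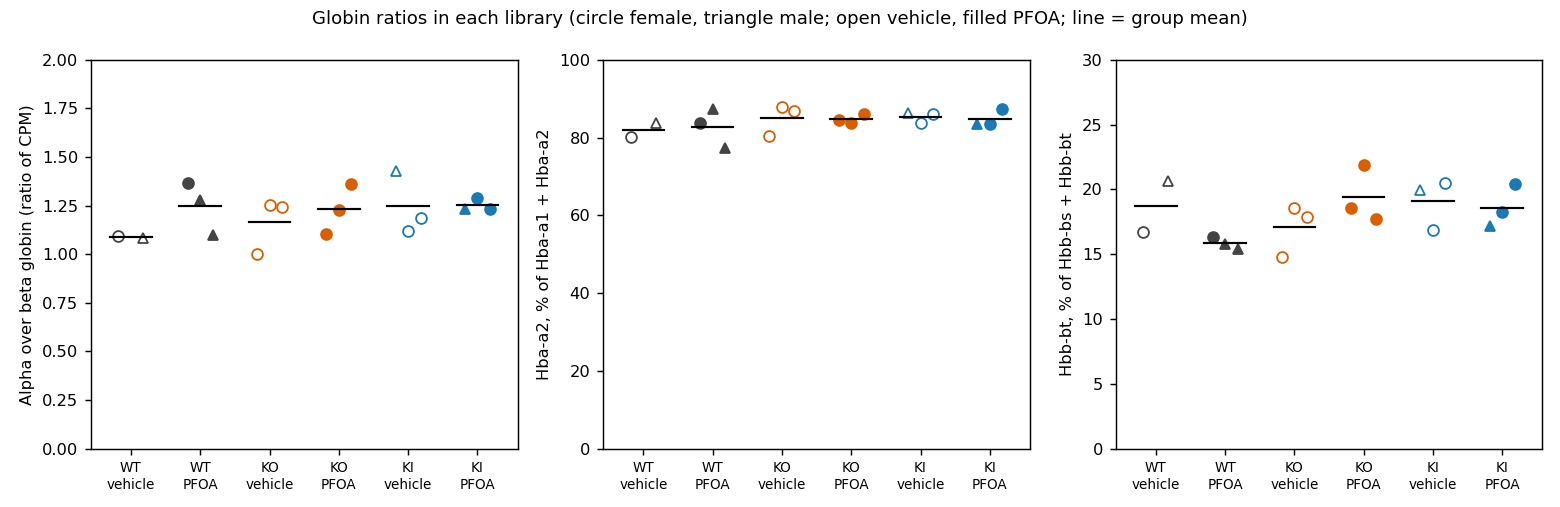
Alpha over beta globin (ratio of CPM), the share of Hba-a2 in alpha globin (%) and the share of Hbb-bt in beta globin (%) in each library, by group, with circles for females, triangles for males, open symbols for vehicle, filled for PFOA and a line at the group mean. The ratio lies between 1.002 and 1.43 in all 17 libraries, including those with the highest and lowest globin sums.

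In WT mice the Hbb-bt share was 16.7 and 20.6% in the vehicle libraries and 16.4, 15.8 and 15.4% in the PFOA libraries, so the 3 exposed values lay below both vehicle values. The share was not tested. In KO, the share was 14.8 to 18.6% on vehicle and 17.8 to 21.9% on PFOA, and in KI it was 16.9 to 20.5% and 17.2 to 20.4%, so the KO and KI groups overlapped.

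Alas2 encodes the red cell form of the enzyme that starts heme synthesis (ENSMUSG00000025270, chromosome X, 150547375 to 150570638, plus strand). WT vehicle libraries 107 and 122 had 56.8 and 17.6 CPM, and WT PFOA libraries 50, 56 and 65 had 49.6, 30.8 and 61.5 CPM. KO vehicle libraries 137, 145 and 149 had 14.3, 42.6 and 31.4 CPM, and KO PFOA libraries 52, 154 and 155 had 61.5, 49.5 and 17.5 CPM. KI vehicle libraries 102, 116 and 135 had 86.5, 40.96 and 28.1 CPM, and KI PFOA libraries 57, 80 and 139 had 85.2, 17.6 and 15.8 CPM. Its vehicle and PFOA libraries overlapped in each genotype. Alas2 stood at 3.53 to 4.78% of the globin sum in every library. Apex2, on the other strand, overlaps Alas2 and had 2555 counts in all, against 5339 for Alas2. Whether the counting used the strand is not given in the sources used here.

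Slc4a1 encodes band 3, the anion exchanger of the red cell membrane (ENSMUSG00000006574, chromosome 11, 102348824 to 102366203, minus strand). WT libraries had 0.666 and 0.653 CPM on vehicle (107, 122; 5 and 4 counts) and 0.127, 0.731 and 1.03 CPM on PFOA (50, 56, 65; 1, 5 and 8 counts). KO libraries had 2.53, 2.39 and 0.879 CPM on vehicle (137, 145, 149; 11, 17 and 7 counts) and 1.86, 0.745 and 0.299 CPM on PFOA (52, 154, 155; 14, 7 and 2 counts). KI libraries had 8.92, 2.16 and 1.55 CPM on vehicle (102, 116, 135; 56, 17 and 11 counts) and 1.60, 0.899 and 0.419 CPM on PFOA (57, 80, 139; 14, 7 and 3 counts). KI library 102 stood far above all others, and the KI groups overlapped only through PFOA library 57, which was just above vehicle library 135.

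Epb42 encodes protein 4.2, which binds band 3 to the membrane skeleton (ENSMUSG00000023216, chromosome 2, 121017891 to 121037072, minus strand). WT vehicle libraries 107 and 122 both had 0 counts, and WT PFOA libraries 50, 56 and 65 had 5, 0 and 11 counts. KO vehicle libraries 137, 145 and 149 had 14, 0 and 2 counts, and KO PFOA libraries 52, 154 and 155 had 3, 2 and 0 counts. KI vehicle libraries 102, 116 and 135 had 5, 4 and 1 counts, and KI PFOA libraries 57, 80 and 139 had 4, 2 and 0 counts. The highest Epb42 level, 3.22 CPM, came from KO vehicle library 137, which was among the lowest for globin. WT PFOA libraries pooled had 16 counts (0.721 CPM before scaling), which is 3.55-fold above a floor of 3 counts over the WT vehicle group. This value covers counting only and not the spread between mice, and WT PFOA library 56 was at 0 like both vehicle libraries.

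Bpgm makes 2,3-bisphosphoglycerate, which lowers the oxygen affinity of hemoglobin (ENSMUSG00000038871, chromosome 6, 34476207 to 34505613, plus strand). WT libraries had 28.1 and 28.6 CPM on vehicle (107, 122) and 23.8, 21.04 and 35.4 CPM on PFOA (50, 56, 65). KO libraries had 17.3, 29.7 and 23.1 CPM on vehicle (137, 145, 149) and 29.6, 28.6 and 21.97 CPM on PFOA (52, 154, 155). KI libraries had 50.0, 23.5 and 22.3 CPM on vehicle (102, 116, 135) and 38.3, 21.4 and 21.4 CPM on PFOA (57, 80, 139). Its range over libraries was 2.90-fold, against 6.06 to 8.06-fold for the globins and Alas2, and KI libraries 102 and 57 and WT PFOA library 65 lay above all the others.

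Globins and Alas2 rose and fell together from mouse to mouse. Over 17 libraries, on the log2(CPM + 1) scale, the correlation with Hbb-bs was 0.982 for Hba-a1 (Spearman's rho 0.9755), 0.976 for Hba-a2 (rho 0.946), 0.973 for Hbb-bt (rho 0.953) and 0.984 for Alas2 (rho 0.958). Each had p = 1e-05 for both measures in a two-sided permutation test, the smallest that 100000 resamples can give, and an adjusted p of 2.5e-05 over 10 relations. Without the 2 libraries farthest from the median of Hbb-bs (KI PFOA 139 and 57), r was 0.9748, 0.968, 0.967 and 0.981 in the same order. Hbb-bt and Hbb-bs are nearly identical in their reference coding sequence, and the part of this in their correlation was not tested.

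Bpgm followed Hbb-bs with r = 0.783 (permutation p = 0.00013, adjusted p = 0.00026) and rho = 0.801 (permutation p = 0.00022, adjusted p = 0.00044), and r was 0.740 without the 2 farthest libraries. Slc4a1 had r = 0.441 (permutation p = 0.072, adjusted p = 0.120) and rho = 0.426 (permutation p = 0.0895, adjusted p = 0.128), with r = 0.406 without the 2 farthest. Epb42 had r = 0.174 (permutation p = 0.522, adjusted p = 0.580) and rho = 0.451 (permutation p = 0.0708, adjusted p = 0.118), with r = 0.101 without them. For these 2 genes, the relation depended on single libraries. Without KO vehicle library 137, r was 0.545 for Slc4a1 and 0.628 for Epb42. Without KI vehicle library 102, it was 0.256 for Slc4a1 and 0.115 for Epb42, and without WT PFOA library 65 it was 0.0926 for Epb42.

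Within females alone (n = 12), r with Hbb-bs was 0.976 for Hba-a1, 0.971 for Hba-a2, 0.969 for Hbb-bt, 0.973 for Alas2 and 0.791 for Bpgm. With each value centred on its group mean, it was 0.983, 0.977, 0.982, 0.982 and 0.795 in the same order. Centred on the index-like number that sets of libraries share in the table's column names, whose meaning the labels do not give, it was 0.987, 0.983, 0.976, 0.990 and 0.754. Too few males were measured for a correlation within them. The neutrophil gene S100a8 had r = -0.13 with Hbb-bs (permutation p = 0.616, adjusted p = 0.616; rho = -0.20, permutation p = 0.437, adjusted p = 0.486), which became 0.120 without the 2 farthest libraries. Ppbp, a platelet chemokine, had r = 0.256 (permutation p = 0.321, adjusted p = 0.402; rho = 0.130, permutation p = 0.620, adjusted p = 0.620; 0.197 without the 2 farthest). The total count had r = 0.389 (permutation p = 0.117, adjusted p = 0.168; rho = 0.404, permutation p = 0.109, adjusted p = 0.136; 0.331 without the 2 farthest).

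**Figure D4:**
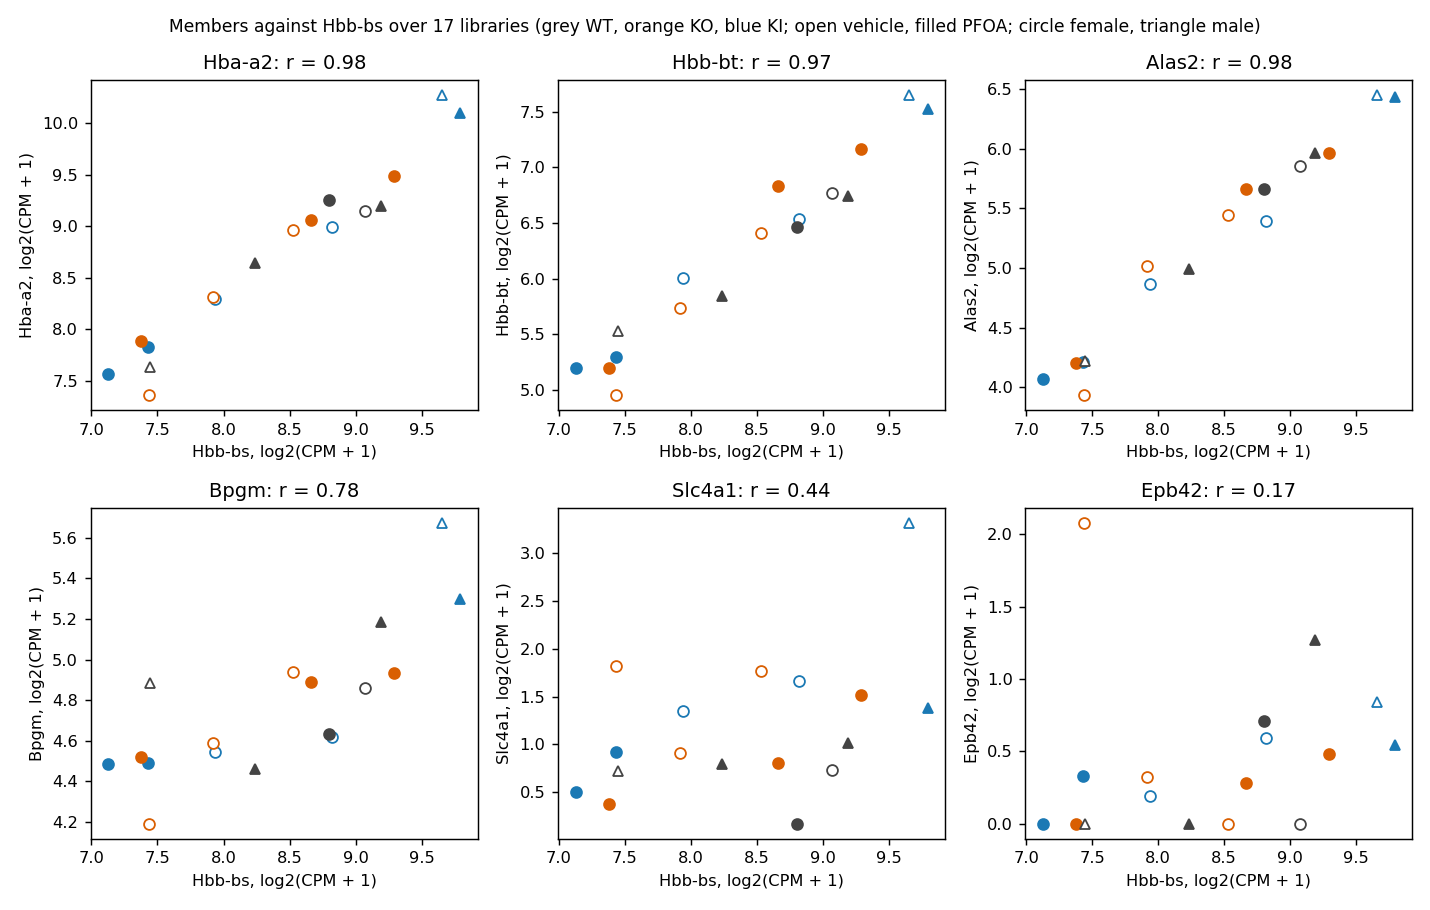
Level of 6 members against Hbb-bs, both as log2(CPM + 1), in 17 libraries (grey WT, orange KO, blue KI; open vehicle, filled PFOA; circle female, triangle male). Points of Hba-a2, Hbb-bt and Alas2 follow a line, those of Bpgm follow it more loosely (r = 0.78), and Epb42 shows a high point at low Hbb-bs from KO vehicle library 137.

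Of the 19194 non-member genes that averaged 1 CPM or more, the 5 whose level was most like that of Hbb-bs included Srpx (r = 0.846), Fech (0.811), Trarg1 (0.810) and Fam220a (0.795), over 17 libraries. As the highest of so many, they are given as a description. Fech encodes ferrochelatase, which inserts iron into heme, and ranged from 38.0 to 79.8 CPM.

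PFOA was compared with vehicle in each genotype in a fit of all 26946 tested genes with edgeR's quasi-likelihood test, where a call needed a Benjamini-Hochberg adjusted p below 0.2 together with more than a 2-fold change. In WT mice, 0 of the 8 members were called, and 0% of all genes tested were. That share rests on the vehicle libraries 107 and 122, which differed from each other more than any other replicate pair (chi-square per degree of freedom over genes 57.9). With either left out, 1 vehicle library remains, so no counts of calls are given for those fits. 1 member, Epb42, had an unadjusted p under 0.05, as had 7.34% of all genes. DESeq2 called 0 members and 0.0891% of all genes, or 0.275% with its default filters. The log2 fold change of Hbb-bs was 0.32 (SE 0.69, 95% interval -1.13 to 1.76), that of Alas2 was 0.34 (SE 0.68), that of Bpgm was -0.08 (SE 0.34) and that of Slc4a1 was -0.08 (SE 0.99). Adjusted p in edgeR was at least 0.675 for every member. The interval of Hbb-bs thus includes changes of more than 2-fold in either direction. Without library 122, which has the low protein-coding share, the value for Hbb-bs was -0.27, and without library 107 it was 1.35. The summed markers of 3 other cell types did not overlap between the WT groups. Such separation was common in WT, with 11.7% of all genes higher and 10.8% lower on PFOA without overlap. Platelet markers, all 8 measured, were at 12.4 to 12.9 CPM on vehicle and 15.0 to 20.04 CPM on PFOA, and endothelial markers, all 8 measured, at 1887 to 2956 and 3065 to 3364 CPM. Lung epithelial markers, all 8 measured, were lower on PFOA, at 19599 to 25916 CPM on vehicle and 13240 to 13885 CPM on PFOA. Their part in the WT values was not tested.

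None of the members had WT PFOA libraries all above or all below the vehicle libraries, whereas 11.7% of all genes were higher and 10.8% lower in this way. Of the genes tested in KO mice, 6.82% and 5.99% were so separated, and of those in KI mice 4.45% and 3.79%, again with 0 members.

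In KO mice, 0 of the 8 members and 0% of all genes tested were called by edgeR. No member had an unadjusted p under 0.05 (9.79% of all genes had), and DESeq2 called 0 members and 0.252% of all genes, or 0.267% with its default filters. The log2 fold change was 0.61 for Hbb-bs (SE 0.62, 95% interval -0.68 to 1.90), 0.53 for Alas2 (SE 0.61), 0.19 for Bpgm (SE 0.30) and -0.95 for Slc4a1 (SE 0.78). Without KO PFOA library 52 it was 0.13 for Hbb-bs and -1.78 for Slc4a1, and without KO PFOA library 155 it was 0.98 for Hbb-bs and -0.56 for Slc4a1. The lowest edgeR adjusted p of a member was 0.601. Platelet markers, all 8 measured, summed to 14.3 to 25.3 CPM in KO vehicle and 25.6 to 48.2 CPM in KO PFOA libraries, and neutrophil markers, 6 of 8 measured, to 4.92 to 48.8 and 20.8 to 49.0 CPM. Their part in these values was not tested. All 3 KO PFOA libraries carry the same number in their column names and no KO vehicle library does, so that number and exposure cannot be told apart in KO.

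In KI mice, 0 of the 8 members and 0% of all genes tested were called by edgeR. Slc4a1 was the 1 member with an unadjusted p under 0.05 (edgeR adjusted p = 1), where 2.59% of all genes had such a p. DESeq2 called 0 members and 0.00371% of all genes, with and without its default filters. The log2 fold change of Slc4a1 was -2.06 (SE 0.75, 95% interval -3.62 to -0.49) and was -0.90 without KI vehicle library 102. Hbb-bs had a log2 fold change of -0.32 (SE 0.61, 95% interval -1.61 to 0.96), Alas2 of -0.38 (SE 0.60) and Bpgm of -0.23 (SE 0.30). All 8 point estimates were below 0, and those of Hbb-bs, Alas2 and Bpgm turned positive without library 102 (0.20, 0.20 and 0.24). Without KI PFOA library 57 the values moved the other way, to -1.69 for Hbb-bs and -1.63 for Alas2. In that fit 6 of the 8 members (the 4 globins, Alas2 and Slc4a1) had an unadjusted p under 0.05, as had 2.34% of all genes, with 0 members called. The globins and Alas2 rose and fell together, so they do not count as separate results. That fit also sets females only against a vehicle group that keeps the high male 102. Cardiac muscle markers summed to 7418 CPM in library 102 and 6219 CPM in library 57, the 2 libraries with the most globin RNA, against 283 to 4235 CPM in the others. Their part in the globin levels was not tested.

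**Figure D5:**
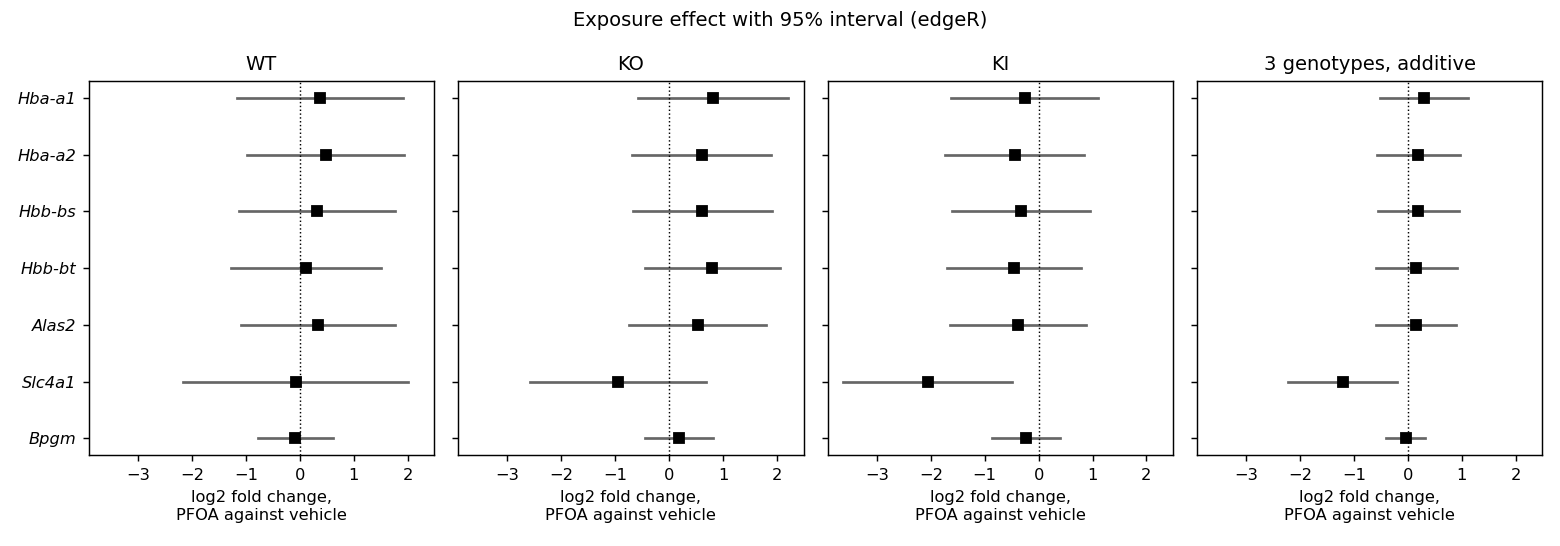
Log2 fold change of PFOA against vehicle (horizontal axis; squares) with its 95% interval (lines) from edgeR for 7 members in WT, KO, KI and the additive fit over 3 genotypes. The intervals of the globins, Alas2 and Bpgm all include 0, and that of Slc4a1 lies below 0 in KI and in the additive fit before adjustment; Epb42 is left out because its WT vehicle libraries were at 0.

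The difference between exposure effects was tested directly. For KO minus WT, 0 members and 0% of all genes tested were called by edgeR, 1 member (Epb42, edgeR adjusted p = 0.669) and 7.44% of all genes had an unadjusted p under 0.05, and DESeq2 called 0 members and 0.0111% of genes. For KI minus WT, 0 members and 0% were called by edgeR, 1 member (Epb42, edgeR adjusted p = 1) and 4.56% of all genes had an unadjusted p under 0.05, and DESeq2 called 0 members and 0.00371% of genes. The default filters of DESeq2 gave the same shares in both. The Epb42 values rest on the 0 counts in WT vehicle. Fits without a WT vehicle library leave 1 in that group, so no counts of calls are given from them for these differences either. Without KI PFOA library 57, 6 members (the 4 globins, Alas2 and Epb42) had an unadjusted p under 0.05 for KI minus WT, as had 4.47% of all genes. Of these, the globins and Alas2 rose and fell together and are not separate results. For Hbb-bs, the 95% interval of the difference was -1.63 to 2.22 for KO minus WT and -2.58 to 1.29 for KI minus WT on the log2 scale.

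Over the 3 genotypes in an additive fit, 0 members and 0% of all genes tested were called by edgeR, and DESeq2 called 0 members and 0.0965% of genes, or 0.0816% with its default filters. Slc4a1 was the 1 member with an unadjusted p under 0.05 (log2 fold change -1.21, SE 0.49, edgeR adjusted p = 0.536), as had 8.27% of all genes. Its value was -0.72 without KI vehicle library 102. The log2 fold change was 0.19 for Hbb-bs (SE 0.36, 95% interval -0.56 to 0.95), 0.14 for Alas2 (SE 0.36, 95% interval -0.60 to 0.89) and -0.04 for Bpgm (SE 0.18, 95% interval -0.41 to 0.32). In this fit of 17 libraries the interval of Hbb-bs ended just short of a 2-fold rise (log2 of 1). So did those of Hba-a2 (-0.58 to 0.97) and Hbb-bt (-0.60 to 0.90), whereas that of Hba-a1 (-0.52 to 1.11) included a 2-fold rise. The narrowest interval was that of Bpgm.

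Between genotypes, over both exposures, KO and WT mice differed in 2.38% of all genes tested in edgeR and in 0 members. No member had an unadjusted p under 0.05 (12.9% of all genes had), and DESeq2 called 0 members and 2.97% of genes, or 2.94% with its default filters. The log2 fold change of Hbb-bs was -0.30 (SE 0.44), and that of Slc4a1 was 0.93 (SE 0.64, edgeR adjusted p = 0.601). For KI against WT, 1.36% of all genes and 0 members were called, 9.65% of genes and 1 member had an unadjusted p under 0.05, and DESeq2 called 1.7% of genes, or 1.71% with its default filters, and 0 members. That member was Slc4a1, with a log2 fold change of 1.61 (SE 0.64, edgeR adjusted p = 0.360), while Hbb-bs had 0.18 (SE 0.45). For Slc4a1 it fell to 0.97 (edgeR adjusted p = 0.760) without KI vehicle library 102, and the value for KO against WT fell to 0.55 without KO PFOA library 52. Slc4a1 was 0.641 ± 0.325 CPM (SD, n = 5) in WT, 1.45 ± 0.935 (SD, n = 6) in KO and 2.59 ± 3.16 (SD, n = 6) in KI libraries. With sex as a term in the edgeR fit, Slc4a1 passed in both comparisons, with 2.10 (adjusted p = 0.135) in KO and 1.90 (adjusted p = 0.110) in KI against WT. In that fit 1.59% and 1.54% of all genes were called, in the same order. All KO mice were female, so the sex term came from WT and KI mice only. In females alone, the log2 fold change of Slc4a1 was 1.96 in KO and 1.68 in KI against WT. That fit keeps a single WT library on vehicle and a single one on PFOA, so no adjusted p is given for it.

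Males and females were compared after the values had been seen, by the sex term of an additive edgeR fit with genotype and exposure. In it, 0 of the 8 members and 0.0408% of all genes tested were called, 2 members (Slc4a1 and Bpgm) and 5.09% of all genes had an unadjusted p under 0.05, and DESeq2 called 0 members and 0.141% of genes, or 0.148% with its default filters. The count of members with an unadjusted p under 0.05 rose from 2 to 7, all but Epb42, without WT vehicle library 107 and also without 122, where 4.08% and 5.25% of all genes had such a p. Since the globins and Alas2 rose and fell together, they are not separate results in these counts. Bpgm had 35.4, 21.04 and 28.6 CPM in the WT males 65, 56 and 122, and 50.0 and 38.3 CPM in the KI males 102 and 57, against a lowest, median and highest value of 17.3, 23.3 and 29.7 CPM in the 12 females. Its log2 fold change, males against females, was 0.60 (SE 0.18, edgeR adjusted p = 0.571), and was 0.39 without library 102 and 0.13 without libraries 102 and 57. For Slc4a1 it was 1.75 (SE 0.49, edgeR adjusted p = 0.442). For Hbb-bs it was 0.71 (SE 0.44), and it turned to -0.53 without libraries 102 and 57. In KI mice, the 2 males had 804 and 885 CPM of Hbb-bs and the 4 females 139 to 450 CPM, whereas in WT mice the 3 males had 173 to 583 CPM and the 2 females 445 and 537 CPM.

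Other genes of the red cell were read from lists that were chosen with earlier results of these data known. In edgeR, 0% of all genes tested were called in every comparison that involves PFOA, so 0 calls there hold for any list. The shares were 2.38% in KO against WT, 1.36% in KI against WT and 0.0408% between the sexes. Of the 8 further genes of heme synthesis, all 8 were tested and 0 were called in any comparison. The median log2 fold change on PFOA was -0.12 in WT, -0.01 in KO and -0.03 in KI, against 0.04, -0.03 and 0.00 over all genes tested. Alas1, the housekeeping counterpart of Alas2, had 210.5 to 785 CPM and had r = -0.03 with Hbb-bs, as a description over 17 libraries. It was lower in KO than in WT with a log2 fold change of -0.83 (SE 0.16, edgeR adjusted p = 0.00758), which did not reach the 2-fold limit. In females only it was -0.46, and without WT vehicle library 122 it was -0.55. Both fits keep a single WT vehicle library, so no adjusted p is given for them. On PFOA, the log2 fold change of Alas1 in WT was -0.68 (SE 0.24, unadjusted p = 0.0108, adjusted p = 0.547, by edgeR). It was -0.23 (SE 0.22) in KO and -0.22 (SE 0.22) in KI. Over the 3 genotypes it was -0.36 (SE 0.13, unadjusted p = 0.0122, adjusted p = 0.492, by edgeR). Fech had log2 fold changes on PFOA of 0.27 (SE 0.23) in WT, 0.15 (SE 0.21) in KO and 0.03 (SE 0.20) in KI. Its edgeR adjusted p was at least 0.803.

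Of 15 red cell membrane and skeleton genes, 13 were tested. Epb41, which encodes protein 4.1, had 238 to 511 CPM and a log2 fold change of -0.55 (SE 0.16, edgeR adjusted p = 0.099) in KO against WT, and Tmod1, a tropomodulin, had -0.43 (SE 0.14, adjusted p = 0.129), both under 2-fold. For PFOA against vehicle, the list's median was 0.42 in WT, -0.23 in KO and -0.17 in KI. There were 0 genes of the list called on PFOA, as were 0% of all genes tested.

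Among 8 erythroid regulators, Klf1 and Gfi1b were below 20 counts in all and were not tested, and Gata1 had 64 counts. The 6 that were tested had 0 calls in any comparison, beside the shares of all genes given with the heme synthesis list. Tfrc, the transferrin receptor, had 31.5 to 60.2 CPM, and Lmo2 had 23.5 to 56.2 CPM, but both are also used by other cells. Of 15 further genes of red cell precursors, 11 were tested and 0 were called. Hemgn, specific to precursors, had 25 counts in all, while Mkrn1 (39.6 to 88.9 CPM) and Bnip3l, which serves the removal of mitochondria (32.7 to 77.2 CPM), are broadly expressed. Embryonic and theta globins (7 genes) were not analysed here.

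Genes that handle hemoglobin and heme after red cells break down were not called either, with 12 of 12 tested and 0 calls in any comparison. The shares of all genes called are those given with the heme synthesis list. Lrp1, a receptor that takes up heme bound to hemopexin, had 537 to 1438 CPM, and Fth1, the ferritin heavy chain, 457 to 1118 CPM. Lrp1 had a log2 fold change on PFOA of 0.30 (SE 0.24) in WT, 0.43 (SE 0.22) in KO and 0.19 (SE 0.22) in KI. Fth1 had -0.06 (SE 0.25), 0.16 (SE 0.22) and 0.10 (SE 0.22) in the same order. Both had an edgeR adjusted p of at least 0.528. Hp, which encodes haptoglobin and was picked by the study from these samples, is in this list. The study listed it in WT by DESeq2 but names it among genes that passed artifactually. It was not called by edgeR here. Its unadjusted edgeR p was under 0.05 on PFOA in WT and over the 3 genotypes, in KO against WT and in both differences between exposure effects. In KO and KI on PFOA it was not.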

How the data were processed

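Lung RNA libraries of 17 mice were made by the authors from 6 ng of total RNA with a stranded total RNA kit, and aligned to mm10 with STAR 2.6 in Partek (per the submitters' processing notes). They deposited estimated counts per gene from an expectation-maximization model, without normalization, and 29.9% of the values are not whole numbers. Their notes also name DESeq2 3.5. The use of strand and the annotation release are not given in the sources used here. The table has 0 columns of other samples.

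Counts were first rounded. Genes with at least 20 counts in total (26946) were scaled by TMM and fitted with edgeR 4.0.16 in R 4.3.3, with Benjamini-Hochberg adjustment over every tested gene and calls at an adjusted p below 0.2 with more than a 2-fold change. The 6 groups had a coefficient each, while comparisons over genotypes, exposures or sexes used additive terms. DESeq2 1.42.0, RLE and upper-quartile factors, other filters, covariates and libraries left out were alternatives. Correlations used log2(CPM + 1) and 100000 resamples. Tests were tried on simulated data. Replicate libraries differed beyond sampling noise (chi-square per degree of freedom 6.28 or more). Tables were handled in Python 3.11.15 with scipy 1.17.1, numpy 2.4.6 and pandas 2.3.3, and matplotlib 3.10.9 drew the figures. At 4116116 to 9237385 counts a library, 3 counts equal 0.325 to 0.729 CPM.

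Named were all 8 members, the 2 tested genes of each list with the highest mean CPM, list genes that were called, and the 5 genes most like Hbb-bs. Srpx, Trarg1 and Fam220a entered by the last rule. Some genes that these rules picked are not reported here. Klf1, Gfi1b, Gata1 and Hemgn are named outside it, after their values were seen. The members and lists were chosen with earlier results of these data known. The comparison of sexes and the settings without libraries 102 and 57 were added after seeing the data. Promoters are from RefSeq (GRCm38.p6), and coordinates and coding sequences from GENCODE annotation of the same build.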

Additional observations from a re-analysis of the deposited data

How the results depend on the processing

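Of the recomputed counts of called members, 294 kept the reported 0 and 4 changed to 1, which was Slc4a1 each time. With sex as a covariate this was 1 member in KO against WT (log2 fold change 2.10), where 1.59% of all genes were called. In KI against WT it was also 1 member (1.90), where 1.54% of all genes were called. The other changes were between the sexes, without libraries 122 and 137 (1.92) and without WT vehicle library 122 alone (1.94). Both of those fits keep 1 WT vehicle library, so no shares are given for them. Of the recomputed log2 fold changes, 759 kept their direction and side of the threshold and 42 reversed, none of them called. The cause of these shifts was not tested.

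In females only, the PFOA effect was -0.27 for Hbb-bs and -0.19 for Alas2 in WT, and -0.12 (Hbb-bs), -0.10 (Alas2) and 0.021 (Bpgm) over the 3 genotypes, and Hbb-bs was -0.99 in KI against WT. Without libraries 122 and 137, it was -0.28 (Hbb-bs) and -0.26 (Alas2) in WT, and -0.079 (Hbb-bs) and -0.15 (Alas2) over the 3 genotypes, and Hbb-bs was -0.079 in KI against WT. With the column-name number as a covariate, the PFOA effect was 0.31 (Bpgm) and 0.20 (Slc4a1) in WT. In KO it was -0.21 (Hbb-bs), -0.17 (Alas2) and -0.37 (Bpgm), but there the number and exposure cannot be told apart. These KO values rest on differences between the numbers in the other genotypes. Over the 3 genotypes it was -0.15 (Hbb-bs) and -0.11 (Alas2). Hbb-bs in KO against WT was 0.072 with this covariate and 0.017 with sex as a covariate. Without libraries 102 and 57, a setting added after seeing the data, Bpgm was 0.020 over the 3 genotypes, and Hbb-bs was -0.68 in KI against WT and -0.53 between the sexes.

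With each library left out in turn, the WT effect ranged from -0.27 to 1.35 for Hbb-bs and from -0.26 to 1.43 for Alas2 (lowest without vehicle library 122, highest without 107), from -0.34 to 0.064 for Bpgm and from -0.65 to 0.42 for Slc4a1. In KI it ranged from -1.69 to 0.20 for Hbb-bs, from -1.63 to 0.20 for Alas2 and from -0.57 to 0.24 for Bpgm (lowest without PFOA library 57, highest without vehicle library 102). In KO it ranged from 0.13 to 0.98 for Hbb-bs, from 0.18 to 0.89 for Alas2 and from -1.78 to -0.56 for Slc4a1 (lowest without PFOA library 52, highest without 155). Over the 3 genotypes it ranged from -0.11 to 0.39 for Hbb-bs, from -0.13 to 0.37 for Alas2 and from -0.13 to 0.12 for Bpgm, and Hbb-bs in KI against WT from -0.23 to 0.42. A fit without a WT vehicle library leaves 1 in its group, which is assumed to vary like the others.

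Of the recomputed correlations with Hbb-bs, 251 kept their direction and side of the threshold. Slc4a1 passed without libraries 122 and 137 (r = 0.533) and without KO vehicle library 137 alone (0.545). Centred on group means, Slc4a1 had r = 0.616 and also passed. The permutation test did not allow for the group means removed, so no conclusion is drawn from that pass. With each library left out, r of Slc4a1 ranged from 0.256 (without KI vehicle library 102) to 0.545. Epb42 was -0.11 in females, passed without 122 and 137 (0.598) and without 137 alone (0.628), and ranged from 0.0926 to 0.628 with each library left out. Ppbp was -0.16 in females and -0.087 without 102 and 57, and the total count ranged from 0.277 to 0.524. The lowest adjusted p of the total count over the settings was 0.0365 (permutation test), which passes. Groups of 2 or 3 mice and the few counts of Slc4a1 and Epb42 limit all comparisons. No paired analysis was possible because the animal numbers are not shared between groups.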
